A study of Mus musculus with 4 samples.

Results

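The genes described here encode voltage-gated calcium and sodium channels, HCN channels, TRP channels and the calcium release channels of the endoplasmic reticulum. Members were taken by gene symbol: every gene of the expression table with a symbol beginning Cacna, Cacnb, Cacng, Scn followed by a digit, Trpc, Trpm or Trpv followed by a digit, or Mcoln, together with Trpa1, the HCN channel genes, Ryr1 to Ryr3 and Itpr1 to Itpr3, and without *Cacna1d*. This gave 44 of the 12814 genes in the table. *Trpc4ap* was taken by its symbol but encodes a protein that associates with TRP channels and is no channel subunit.

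The study asked how the transcriptome of inner ear hair cells (HCs) differs from that of the cells around them in the organs of hearing and of balance. Cells of newborn *Atoh1/nGFP* mice at postnatal day 1, on a C57BL/6 background, were sorted into 4 populations: cochlear HCs, cochlear epithelial non-sensory cells (ENSCs), vestibular HCs and vestibular ENSCs. All 4 carried the transgene, in which the *Atoh1* enhancer drives a nuclear green fluorescent protein (GFP). HCs were sorted as cells with both GFP and the epithelial surface protein CD326, and ENSCs as cells with CD326 and without GFP, so that ENSCs can hold all other epithelial cells of the dissected tissue and not 1 cell type. The table had 1 column per population, made from pooled mice. A column may be a single library or replicates combined into 1, which the table does not tell, and is called a library here. There was therefore no replicate error, no test between single populations was possible, and every ratio below compares 1 column with 1 other.

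HCs turn the deflection of their hair bundle into a change of membrane potential. Voltage-gated calcium channels at the base of the cell then open and trigger transmitter release at ribbon synapses. Each such channel has a pore-forming alpha1 subunit and, in most channels, a cytosolic beta and an extracellular alpha2delta subunit. Sodium channels with their beta subunits carry a transient inward current that immature HCs are known to use, HCN channels open on hyperpolarization, TRP channels are cation channels gated by a wide range of stimuli, and ryanodine and IP3 receptors release calcium from internal stores.

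Values are quantile-normalized read counts with a floor of 20, called the signal here. It takes no account of gene length and is compared between libraries, and levels are compared between genes only as signal per kilobase of exon. The lowest values of each library form a tied stretch that reached up to 24.25 in cochlear HCs, 22.75 in cochlear ENSCs, 30.5 in vestibular HCs and 20 in vestibular ENSCs. Values within that stretch could not be told from the floor, so a ratio against such a value is given as "at least", computed against the top of the stretch. No ratio is given where the higher value lay in it too. Sequencing depth could not be read from the table, since all 4 columns held the same sorted values.

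The sorted HC populations carried their markers. All 10 HC markers examined, among them *Pou4f3*, *Myo7a* and *Otof*, were 3-fold or more higher in HCs in both organs. *Atoh1* drives the GFP used for the sort, and *Epcam*, among the epithelial markers below, encodes CD326, so neither is independent of the sort. The summed signal of 6 neuron markers in the table was 8380, 5347, 8178 and 441 in cochlear HCs, cochlear ENSCs, vestibular HCs and vestibular ENSCs, and 1, 0, 2 and 3 of these markers lay in the tied stretch. The summed signal of 6 glial markers was 2966, 3013, 830 and 3779, that of 4 mesenchymal markers 114, 1743, 167 and 1557, and that of 5 epithelial markers 7431, 9905, 1758 and 21994, and that of 10 supporting cell markers 16168, 98993, 13851 and 23519. Of the supporting cell markers, 4 were lower in HCs by 3-fold or more in the cochlea, and 3 were lower and 1 higher in the vestibular organs. *Epyc* alone gave 62028.5 of the cochlear ENSC sum. *Kdr*, the single endothelial marker in the table, had a signal of 24.3 in cochlear HCs, 29 in cochlear ENSCs, 29.8 in vestibular HCs and 1462 in vestibular ENSCs, and *Mitf*, the single melanocyte marker, of 72.3 in cochlear HCs, 244 in cochlear ENSCs, 41.5 in vestibular HCs and 248 in vestibular ENSCs. Of the 3 blood and 5 skeletal muscle markers listed, 0 matched a symbol of the table.

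Most of the channel genes had a low signal. In cochlear HCs the median over the 44 genes was 75.1 and 15 of them (34.1%) reached 100, compared with a median of 120 and 54.1% for all genes. In cochlear ENSCs, vestibular HCs and vestibular ENSCs the medians were 36.6, 45.8 and 32.9, and 13, 15 and 11 genes reached 100. Above the tied stretch were 16 members in all 4 libraries, 7 in 3, 12 in 2 and 9 in only 1. The members had longer transcripts than the table as a whole, with a median exonic length of 6217 bases against 3819. Of the 44 genes, 18 reached a signal of 100 and differed at least 3-fold in 1 or more contrasts, and 17 of these are given with all 4 values. This rule chose the genes to print, and the share of all genes that meet it was not counted.

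**Figure D1:**
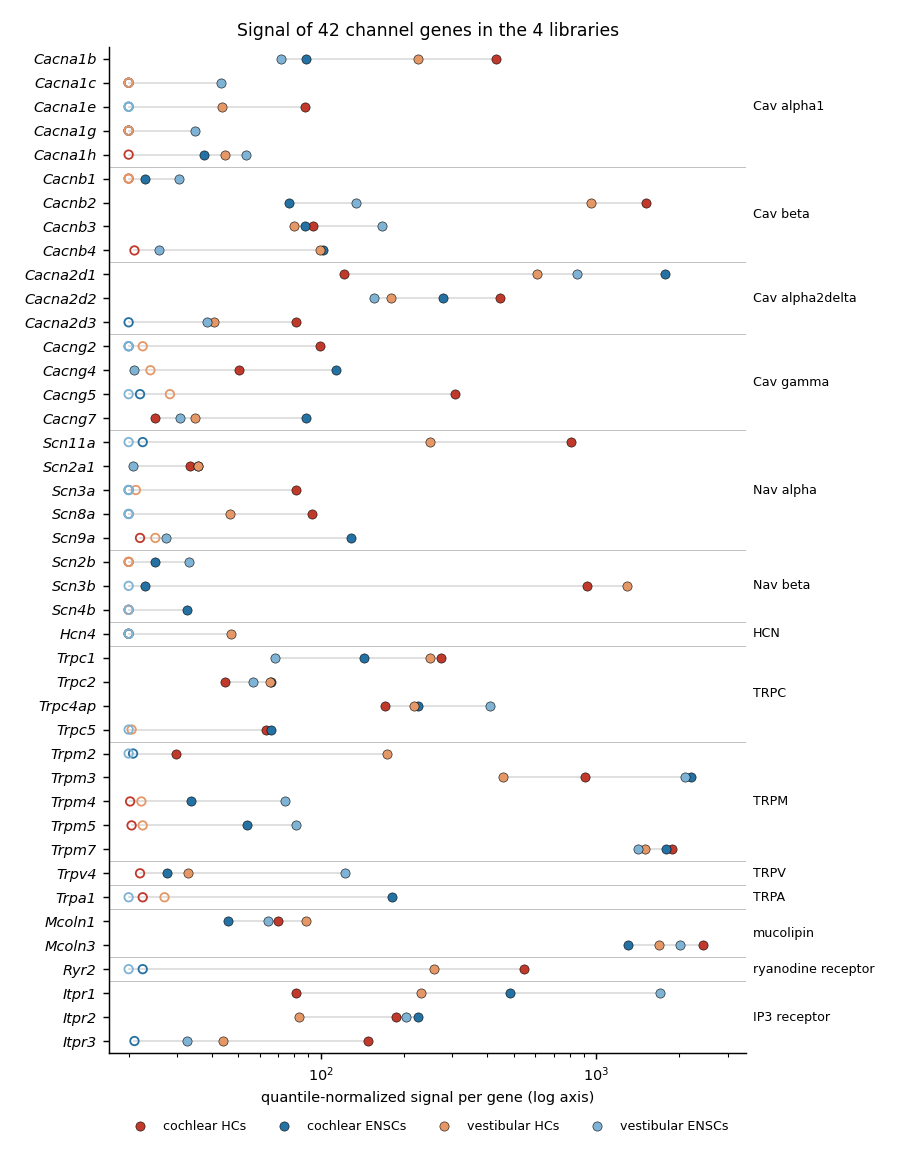
Signal of 42 of the 44 channel genes (log axis) in the 4 libraries, with genes grouped by role, 1 point per library and open circles for values inside the tied lowest stretch of that library. *Scn3b*, *Scn11a*, *Ryr2* and *Cacnb2* have both HC points far to the right of both ENSC points, *Itpr1* and *Trpm3* have them to the left, and *Trpm7* and *Mcoln3* are high in all 4.

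Between HCs and ENSCs of the cochlea, 12 of the 44 genes (27.3%) were 3-fold or more higher in HCs, where 8.39% of all genes were, and 6 (13.6%) were at least 3-fold lower, where 9.2% of all genes were. In the vestibular system 9 genes (20.5%) were 3-fold or more higher in HCs, where 13.8% of all genes were, and 5 (11.4%) were lower, where 14.3% were. The median log2 ratio of HCs to ENSCs over the 44 genes was 0.0 for the cochlea and 0.13 for the vestibular organs, close to the 0.0 and -0.005 of all genes. For 12 of the 18 cochlear differences and 6 of the 14 vestibular ones, the lower value lay in the tied stretch. With pseudocounts of 20 and 100 the 18 became 11 (25% of members, with 12.4% of all genes) and 7 (15.9% of members, with 6.24% of all genes), and the 14 became 9 (20.5% of members, with 20.3% of all genes) and 4 (9.09% of members, with 10.9% of all genes), so that the share of members fell below that of all genes in the last of these. In sorted bulk samples, fewer cells with the RNA of a gene and less RNA per cell cannot be told apart.

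The genes differed in their pattern across the organs. At least 3-fold higher in HCs of both organs were 5 genes, *Cacna1b*, *Cacnb2*, *Scn3b*, *Scn11a* and *Ryr2*, which is 11.4% of the members, and 4.99% of all genes had this pattern. Of the 5, *Cacna1b* went under 3-fold in the vestibular organs with a pseudocount of 20 or 100 and in the cochlea with 100. *Scn11a* and *Ryr2* went under it in the vestibular organs with a pseudocount of 100, which left *Cacnb2* and *Scn3b*. *Itpr1* alone was at least 3-fold lower in HCs of both organs, where 4.66% of all genes were. Past 3-fold in HCs of the cochlea on the deposited values and not past it in those of the vestibular organs were 7 genes (15.9%), *Cacna1e*, *Cacna2d3*, *Cacng2*, *Cacng5*, *Scn3a*, *Scn8a* and *Itpr3*, where 3.39% of all genes were. In the vestibular organs, the ratios of *Cacna1e* and *Scn8a* are lower bounds, at least 2.19-fold and 2.34-fold, and both values of *Cacng2*, *Cacng5* and *Scn3a* lay in the tied stretch and give no ratio. *Cacna1e*, *Cacna2d3*, *Cacng2*, *Scn3a* and *Scn8a* went under 3-fold in the cochlea with a floor of 50 and with a pseudocount of 20 or 100, and *Itpr3* with a floor of 50 and a pseudocount of 100, while *Cacng5* stayed above it with that floor and both pseudocounts. The converse, past 3-fold in the vestibular organs and not in the cochlea, held for 4 genes (9.09%), among them *Cacnb4*, *Trpc1* and *Trpm2*, where 8.76% of all genes had the pattern. Of these, *Cacnb4* went under 3-fold with a floor of 50 and with either pseudocount, and *Trpc1* and *Trpm2* with a pseudocount of 100. Lower in HCs by at least 3-fold in the cochlea and not in the vestibular organs were *Cacna2d1*, *Cacnb4*, *Cacng7*, *Scn9a* and *Trpa1* (11.4%, with 4.54% of all genes). With a floor of 50, *Cacnb4*, *Cacng7* and *Scn9a* went under 3-fold in the cochlea, and with a pseudocount of 100 *Trpa1* did as well, which left *Cacna2d1* alone. Lower in HCs past 3-fold in the vestibular organs and not in the cochlea were *Trpm3*, *Trpm4*, *Trpm5* and *Trpv4* (9.09%, with 9.68% of all genes), of which *Trpm3* alone was left with a floor of 50 or either pseudocount. Whether these ratios differ between the organs beyond the spread of replicates could not be tested.

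**Figure D2:**
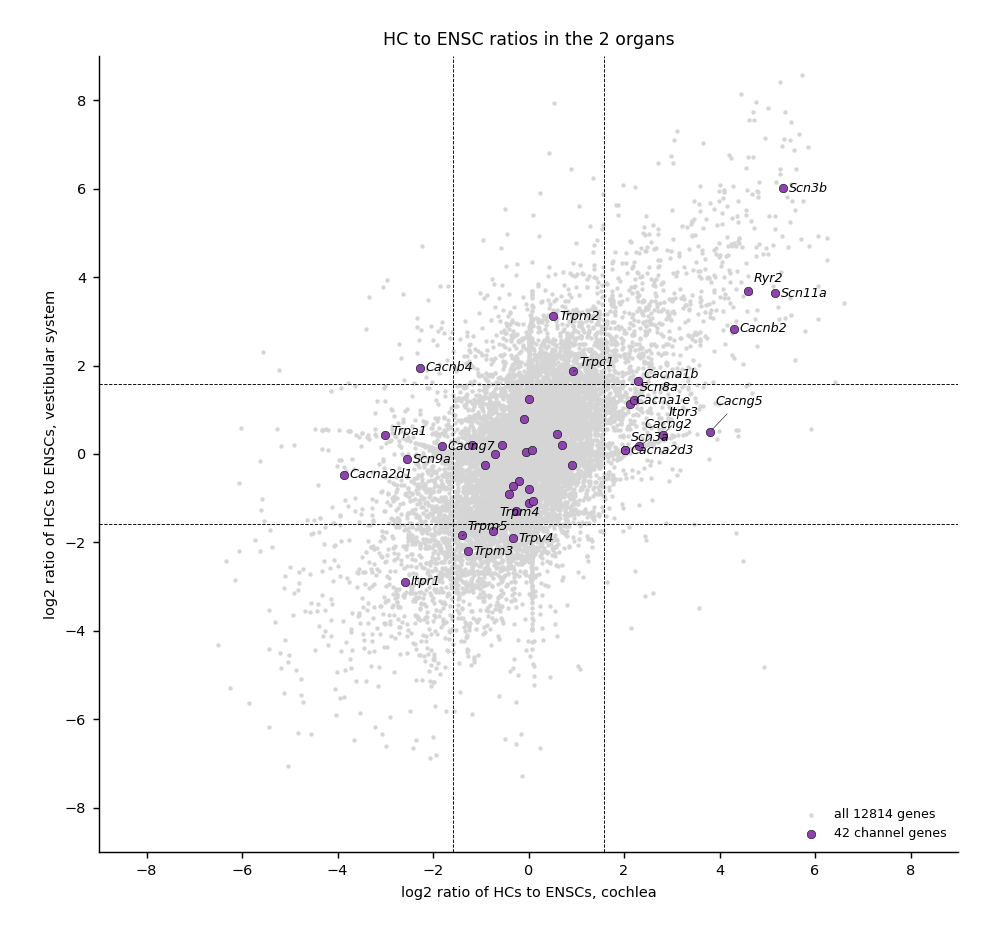
Log2 ratio of HCs to ENSCs in the cochlea (horizontal) against that in the vestibular organs (vertical), with grey points for all 12814 genes, purple points for 42 of the 44 channel genes and dashed lines at 3-fold. The names are those of channel genes past 3-fold in either organ, with *Scn3b*, *Scn11a*, *Ryr2*, *Cacnb2* and *Cacna1b* at the upper right and *Cacnb4* alone at the upper left.

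*Scn3b*, a sodium channel beta subunit that modulates channel gating, had the highest ratios on the deposited values. Its signal was 926 in cochlear HCs, 23 in cochlear ENSCs, 1287 in vestibular HCs and 20 in vestibular ENSCs. Both HC libraries stood far above both ENSC libraries, by 40.2-fold in the cochlea and at least 64.3-fold in the vestibular organs. *Scn11a* encodes Nav1.9, a persistent sodium channel best known from pain-sensing neurons, and had a signal of 809.8 in cochlear HCs, 22.5 in cochlear ENSCs, 249 in vestibular HCs and 20 in vestibular ENSCs. The gene was higher in cochlear HCs by at least 35.6-fold and at least 12.4-fold higher in vestibular HCs, each against its own ENSCs. Cochlear HCs exceeded vestibular HCs by 3.25-fold. *Ryr2*, the ryanodine receptor known as the calcium release channel of heart muscle, measured 545 in cochlear HCs, 22.5 in cochlear ENSCs, 257 in vestibular HCs and 20 in vestibular ENSCs. Both ENSC values of *Ryr2* lay in the tied stretch, so the ratios were at least 23.9-fold and at least 12.9-fold. Of the neuron markers, *Nefl* (2381, 41, 2470 and 20 in cochlear HCs, cochlear ENSCs, vestibular HCs and vestibular ENSCs) and *Nefm* (1995, 76.8, 2121 and 20 in the same order) moved with these genes and with *Cacnb2* and *Cacna1b* below, while *Stmn2* was at 30.8 and 22 in the 2 HC libraries. The part of neuronal RNA in the HC values was not tested.

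*Cacnb2* encodes the calcium channel beta subunit that brings CaV1.3 channels to the membrane of inner hair cells. It had a signal of 1516 in cochlear HCs, 76.8 in cochlear ENSCs, 953 in vestibular HCs and 134 in vestibular ENSCs. The HC to ENSC ratio of *Cacnb2* was 19.8-fold for the cochlea and 7.12-fold in the vestibular organs, and unlike *Scn11a* and *Ryr2* the gene stood above the tied stretch in both ENSC libraries. *Cacna1b*, the pore subunit of the N-type channel CaV2.2, measured 432 in cochlear HCs, 88.3 in cochlear ENSCs, 224 in vestibular HCs and 71.5 in vestibular ENSCs. It was 4.90-fold higher in cochlear HCs and 3.13-fold higher in vestibular HCs, the latter close to the 3-fold threshold.

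In the mm9 build, these genes lie at chr9:40076801-40099203, plus strand (*Scn3b*), chr9:119662881-119734574, minus strand (*Scn11a*), chr13:11645370-12199212, minus strand (*Ryr2*), chr2:14525933-14909535, plus strand (*Cacnb2*) and chr2:24459407-24618672, minus strand (*Cacna1b*). Reads were summed over all exons of a gene, so the values do not separate isoforms or start sites.

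Promoter sequences were available from RefSeq (build GRCm38.p6, 250 bases before to 50 bases after a transcription start) for 33 of the 44 genes, in 43 windows. Those without one included *Cacna1g*, *Cacna1h*, *Cacng4*, *Itpr1*, *Scn2a1*, *Scn3a*, *Scn3b*, *Trpa1* and *Trpm4*. Letters of 3 short motifs were searched on both strands, with the motifs chosen after the values were known: the E-box CAGCTG, of the kind bound by proneural factors such as ATOH1, the RFX half-site GTTGCC, and the RE1 half-site CAGCACC, part of the site of the repressor REST. None of the 3 contains another. The E-box was in 16.3% of all 32851 RefSeq windows and in 11 of the 43 windows of the channel genes (25.6%), those of *Cacna1b*, *Cacna1c*, *Cacna2d3*, *Cacnb2*, *Cacnb4*, *Cacng2*, *Mcoln1*, *Mcoln3*, *Scn11a* and *Trpc2*. The RFX half-site was in 12.5% of all windows and in 3 of the 43 (6.98%), those of *Cacna1e*, *Hcn4* and *Scn2b*. The RE1 half-site was in 7.14% of all and in 2 of the 43 (4.65%), those of *Itpr3* and *Mcoln3*.

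Of the 5 genes higher in HCs of both organs, 4 had promoter windows, and 4 of their 5 windows, from *Cacna1b*, *Cacnb2* and *Scn11a*, held the E-box, with 16.3% of all windows. Of the windows of members 3-fold or more higher in HCs in either organ, which include these, 7 of 18 (38.9%) held it. Of the windows of members lower in either organ, 1 of 10 (10%) did. The 4 windows are shown because they belong to the genes with the same pattern in both organs, 5′ to 3′ on the strand of the gene, with the E-box in capitals. It begins 8 bases before the start in *Cacna1b*, 236 and 121 bases before the 2 starts of *Cacnb2* and 59 bases before the start of *Scn11a*. The window of *Ryr2* held none of the 3 motifs and is shown for comparison. A match describes the letters and not a bound site, and the windows are those of RefSeq starts, which the expression table does not resolve.
Cacna1b promoter, chr2:24763103-24763402, minus strand: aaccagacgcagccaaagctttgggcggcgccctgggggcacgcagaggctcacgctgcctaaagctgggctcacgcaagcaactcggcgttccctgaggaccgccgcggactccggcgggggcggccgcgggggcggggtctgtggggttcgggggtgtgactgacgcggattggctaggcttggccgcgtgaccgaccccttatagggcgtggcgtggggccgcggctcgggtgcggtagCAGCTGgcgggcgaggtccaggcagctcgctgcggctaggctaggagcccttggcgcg
Cacnb2 promoter, chr2:14604056-14604355, plus strand: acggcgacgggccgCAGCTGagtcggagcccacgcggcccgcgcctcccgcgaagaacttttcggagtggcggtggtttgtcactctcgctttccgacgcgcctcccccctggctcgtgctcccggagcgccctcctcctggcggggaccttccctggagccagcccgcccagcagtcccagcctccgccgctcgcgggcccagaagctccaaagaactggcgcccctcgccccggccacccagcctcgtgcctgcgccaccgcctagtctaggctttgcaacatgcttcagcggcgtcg
Cacnb2 promoter, chr2:14823842-14824141, plus strand: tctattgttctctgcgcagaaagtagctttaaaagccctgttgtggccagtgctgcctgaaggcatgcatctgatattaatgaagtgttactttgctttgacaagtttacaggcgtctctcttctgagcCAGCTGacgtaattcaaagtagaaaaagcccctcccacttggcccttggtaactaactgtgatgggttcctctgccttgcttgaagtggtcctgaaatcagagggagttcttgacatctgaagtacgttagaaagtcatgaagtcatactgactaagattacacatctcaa
Scn11a promoter, chr9:119825407-119825706, minus strand: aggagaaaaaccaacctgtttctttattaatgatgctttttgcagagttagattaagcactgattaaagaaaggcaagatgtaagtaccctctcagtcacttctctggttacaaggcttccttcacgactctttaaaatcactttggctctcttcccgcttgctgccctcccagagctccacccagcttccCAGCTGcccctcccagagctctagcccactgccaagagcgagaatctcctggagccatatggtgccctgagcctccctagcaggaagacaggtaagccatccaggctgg
Ryr2 promoter, chr13:12106896-12107195, minus strand: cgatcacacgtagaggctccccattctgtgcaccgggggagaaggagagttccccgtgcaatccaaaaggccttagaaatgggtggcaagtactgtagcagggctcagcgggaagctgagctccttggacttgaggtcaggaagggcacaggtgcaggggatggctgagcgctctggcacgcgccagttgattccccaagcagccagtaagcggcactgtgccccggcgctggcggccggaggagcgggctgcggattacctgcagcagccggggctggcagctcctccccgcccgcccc

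Among the pore-forming calcium channel subunits, *Cacna1b* was the single member of 5 that reached a signal of 100. *Cacna1e*, which encodes the R-type channel CaV2.3, had a signal of 87.3 in cochlear HCs, 20 in cochlear ENSCs, 43.8 in vestibular HCs and 20 in vestibular ENSCs, and was at least 3.83-fold higher in HCs in the cochlea and at least 2.19-fold higher in the vestibular organs. *Cacna1c*, *Cacna1g* and *Cacna1h*, which encode CaV1.2 and the T-type channels CaV3.1 and CaV3.2, stayed between 20 and 53.3 in all 4 libraries and under 3-fold in every contrast. *Cacna1d*, the CaV1.3 pore subunit that carries most calcium current of HCs and is left out of the members by the rule, measured 1522 in cochlear HCs, 127 in cochlear ENSCs, 1142 in vestibular HCs and 207 in vestibular ENSCs. It was 11.98-fold higher in HCs in the cochlea and 5.52-fold in the vestibular organs, against 19.8-fold and 7.12-fold for *Cacnb2*.

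The 4 beta subunit genes differed in pattern. Beside *Cacnb2*, *Cacnb4* measured 21 in cochlear HCs, 102 in cochlear ENSCs, 99.3 in vestibular HCs and 25.8 in vestibular ENSCs. It was high in cochlear ENSCs and vestibular HCs and low in the other two libraries, so that HCs were at least 4.19-fold lower than ENSCs in the cochlea and 3.85-fold higher in the vestibular organs. *Cacnb4* was the only member at least 2-fold apart in opposite directions in the 2 organs, a pattern of 1.69% of all genes. Exons of the noncoding gene A430018G15Rik on the opposite strand share 1433 bases with *Cacnb4* (16.0% of its exons), and since the strand setting of the counting is not stated, reads of the 2 genes there could not be told apart. Both ratios of *Cacnb4* went under 3-fold with a floor of 50 or a pseudocount of 20 or 100. With a correction for exonic length and GC content its log2 ratio was -2.43 for the cochlea and went from 1.95 to 1.23, under 3-fold, for the vestibular organs. *Cacnb3* had values between 79.8 and 166, with the highest in vestibular ENSCs, and *Cacnb1* between 20 and 30.5, both under 3-fold throughout.

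The alpha2delta subunits, which help to place calcium channels at the membrane, went separate ways. *Cacna2d1* had a signal of 122 in cochlear HCs, 1772 in cochlear ENSCs, 610.3 in vestibular HCs and 847 in vestibular ENSCs. Cochlear HCs were the low library, 14.6-fold below cochlear ENSCs and 5.02-fold below vestibular HCs, while the vestibular populations lay within 1.39-fold of each other. The vestibular log2 ratio of *Cacna2d1* went from -0.47 to -1.22, still under 3-fold, with the correction for length and GC content. *Cacna2d2*, the alpha2delta subunit known to serve the CaV1.3 channels of inner hair cells, was highest in cochlear HCs at 447 and between 156 and 277 in the other libraries, under 3-fold in every contrast. *Cacna2d3* reached 81 in cochlear HCs and at most 40.8 in the others, and was at least 3.56-fold higher in HCs in the cochlea.

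The gamma genes encode proteins of the family that includes the TARPs, which traffic AMPA receptors in neurons. *Cacng5* measured 306 in cochlear HCs, 22 in cochlear ENSCs, 28.3 in vestibular HCs and 20 in vestibular ENSCs. Cochlear HCs were the single library above the tied stretch, at least 13.4-fold higher than cochlear ENSCs and at least 10.02-fold higher than vestibular HCs. *Cacng2*, which encodes stargazin, had a similar profile at a lower level, with 99.5 in cochlear HCs and values of 20 to 22.5 in the other libraries. *Cacng4* was highest in cochlear ENSCs, with a signal of 50.3 in cochlear HCs, 114 in cochlear ENSCs, 24 in vestibular HCs and 21 in vestibular ENSCs, and the difference between the 2 ENSC libraries was 5.42-fold. *Cacng7* was likewise highest in cochlear ENSCs at 88 and lay between 25 and 34.8 elsewhere, and was 3.52-fold lower in cochlear HCs than in cochlear ENSCs. The log2 ratio of *Cacng7* there went from -1.82 to -1.56, under 3-fold, with the correction for length and GC content.

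Among the pore-forming sodium channel genes, *Scn11a* had the highest signal per kilobase of exon in cochlear HCs, at 139, against 8.36 for the next, *Scn8a*. *Scn8a*, which encodes Nav1.6, reached 92.5 in cochlear HCs and 46.8 in vestibular HCs and was at the floor in both ENSC libraries, so that it was at least 4.07-fold and at least 2.34-fold higher in HCs. *Scn3a*, Nav1.3, measured 81 in cochlear HCs and was in the tied stretch elsewhere (at least 3.56-fold higher than in cochlear ENSCs). *Scn9a*, Nav1.7, had the reverse profile, with a signal of 22 in cochlear HCs, 128 in cochlear ENSCs, 25 in vestibular HCs and 27.3 in vestibular ENSCs. Cochlear ENSCs were the high library, at least 5.29-fold above cochlear HCs and 4.71-fold above vestibular ENSCs. *Scn2a1*, Nav1.2, stayed between 20.8 and 35.8.

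*Scn2b* and *Scn4b*, sodium channel beta subunits like *Scn3b*, were low. Their values ran from 20 to 33.3, with the highest of *Scn2b* in vestibular ENSCs and of *Scn4b* in cochlear ENSCs. Per kilobase of exon, the signal of *Scn3b* was second among the 44 genes in both HC libraries, at 201 in cochlear and 279 in vestibular HCs.

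*Hcn4*, a pacemaker channel subunit best known from the sinoatrial node of the heart, had a low signal, with 47.3 in vestibular HCs and 20 in the other 3 libraries (at least 2.36-fold in the vestibular organs). Its vestibular log2 ratio went from 1.24 to 2.54, past 3-fold, with the correction for length and GC content.

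Among the TRP channels, *Trpm2*, a channel gated by ADP-ribose and known as a sensor of oxidative stress, was the one with the largest HC to ENSC ratio. *Trpm2* measured 29.8 in cochlear HCs, 20.8 in cochlear ENSCs, 174 in vestibular HCs and 20 in vestibular ENSCs. It peaked in vestibular HCs, which exceeded their ENSCs by at least 8.70-fold and cochlear HCs by 5.85-fold. *Trpc1*, a subunit of receptor-operated channels, had a signal of 274 in cochlear HCs, 143 in cochlear ENSCs, 249 in vestibular HCs and 68 in vestibular ENSCs. Both HC libraries were above both ENSC libraries, by 1.92-fold in the cochlea and 3.65-fold in the vestibular organs.

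*Trpm3*, a channel opened by pregnenolone sulfate and heat in sensory neurons, ranked second of the 44 genes by signal per kilobase of exon in both ENSC libraries, at 268 in the cochlea and 255 in the vestibular organs. Its signal was 911 in cochlear HCs, 2208 in cochlear ENSCs, 457 in vestibular HCs and 2099.8 in vestibular ENSCs. ENSCs were above HCs in both organs, by 2.42-fold in the cochlea and 4.60-fold in the vestibular organs. *Trpv4*, an osmosensitive channel, had a signal of 22 in cochlear HCs, 27.5 in cochlear ENSCs, 32.8 in vestibular HCs and 123 in vestibular ENSCs, and vestibular ENSCs were 3.74-fold above vestibular HCs and 4.46-fold above cochlear ENSCs. The endothelial marker *Kdr* was high in the same library, at 1462, and the summed epithelial markers were highest there too, at 21994. Of the mesenchyme markers, *Col1a1* (512) and *Col3a1* (547) were highest in that library as well, and so was the glial *Sox10* (1183), while the summed mesenchyme markers were 1743 in cochlear and 1557 in vestibular ENSCs. The part of these cells in the values of *Trpv4*, *Itpr1*, *Trpm4* and *Trpm5* was not tested. With the correction for length and GC content, the log2 ratio of *Trpv4* between vestibular HCs and ENSCs went from -1.90 to -0.79 and thus under 3-fold.

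*Trpa1*, the irritant receptor of pain-sensing neurons, was high in 1 library, with a signal of 22.5 in cochlear HCs, 180.3 in cochlear ENSCs, 27 in vestibular HCs and 20 in vestibular ENSCs. Cochlear ENSCs were at least 7.43-fold above cochlear HCs and at least 9.01-fold above vestibular ENSCs, and all 3 of the other libraries lay in the tied stretch. Of the neuron markers, *Stmn2* (30.8, 81.5, 22 and 20 in cochlear HCs, cochlear ENSCs, vestibular HCs and vestibular ENSCs) and *Isl1* (3682, 4976, 2957 and 339 in the same order) were also highest in cochlear ENSCs. *Nefl*, *Nefm* and *Elavl4* were lower there, at 41, 76.8 and 101, than in either HC library. The part of neuronal RNA in the values of *Trpa1* and *Scn9a* was not tested.

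*Trpm4* and *Trpm5*, calcium-activated monovalent cation channels, were highest in vestibular ENSCs at 74 and 80.8 and in the tied stretch in both HC libraries. Their vestibular ratios passed 3-fold on the deposited values and were at least 2.43-fold and at least 2.65-fold against the top of the stretch. With the correction for length and GC content their log2 ratios went from -1.73 to -0.69 and from -1.84 to -1.01. *Trpm5* shares 220 exonic bases (3.44%) with *Tssc4* on the opposite strand, which is in the table too. *Trpc5* lay at 63 and 65.8 in the 2 cochlear libraries and in the tied stretch in both vestibular ones, and *Trpc2* between 44.8 and 66 in all 4.

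*Trpm7*, a channel fused to a protein kinase that carries magnesium and zinc and is used by most cells, was high and flat, with 1887 in cochlear HCs, 1792 in cochlear ENSCs, 1507 in vestibular HCs and 1419 in vestibular ENSCs. All contrasts of *Trpm7* were within a log2 ratio of 0.34. *Mcoln3*, the mucolipin of endosomes and lysosomes whose mutation causes deafness in varitint-waddler mice, measured 2438 in cochlear HCs, 1299 in cochlear ENSCs, 1682 in vestibular HCs and 2014 in vestibular ENSCs. Per kilobase of exon, *Mcoln3* ranked first of the 44 genes in every library, at 705 in cochlear HCs, 376 in cochlear ENSCs, 486 in vestibular HCs and 582 in vestibular ENSCs. Its log2 ratio of HCs to ENSCs was 0.91 for the cochlea and -0.26 in the vestibular organs, so that it did not separate the cell types by 3-fold. *Mcoln1*, the widely used lysosomal mucolipin, lay between 46 and 88, and *Trpc4ap* between 171 and 411.

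The IP3 receptors differed among themselves. *Itpr1* had a signal of 80.8 in cochlear HCs, 485 in cochlear ENSCs, 230 in vestibular HCs and 1707 in vestibular ENSCs. ENSCs were 6.00-fold above HCs in the cochlea and 7.42-fold above them in the vestibular organs, and vestibular ENSCs were also 3.52-fold above cochlear ENSCs. *Itpr3* measured 148 in cochlear HCs, 21 in cochlear ENSCs, 44 in vestibular HCs and 32.5 in vestibular ENSCs. Cochlear HCs were the high library, at least 6.50-fold above cochlear ENSCs and 3.36-fold above vestibular HCs. *Itpr2* lay between 83 and 226, lowest in vestibular HCs, and under 3-fold in every contrast. In cochlear HCs the 3 genes thus had a signal per kilobase of exon of 7.74 (*Itpr1*), 13.9 (*Itpr2*) and 16.4 (*Itpr3*), and in vestibular ENSCs of 164, 15.1 and 3.62.

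Between cochlear and vestibular HCs, 6 of the 44 genes (13.6%) were 3-fold or more higher in the cochlea, where 4.21% of all genes were, and 4 (9.09%) were higher in the vestibular organs, where 5.09% were. Those higher in cochlear HCs were *Cacng2*, *Cacng5*, *Scn11a*, *Itpr3*, *Scn3a* and *Trpc5*. With a floor of 50 or a pseudocount of 20, *Cacng2*, *Itpr3*, *Scn3a* and *Trpc5* went under 3-fold, which left 2 members higher in cochlear HCs, where 2.3% and 2.29% of all genes were. With a pseudocount of 100, *Cacng5* alone was left, where 0.897% of all genes were. For *Scn3a* and *Trpc5* the ratio was at least 2.66-fold and at least 2.07-fold against the top of the tied stretch. Those higher in vestibular HCs included *Trpm2*, *Cacna2d1* and *Cacnb4* (at least 4.09-fold). *Cacnb4* went under 3-fold between the HC populations with a floor of 50 and with a pseudocount of 20 or 100, and *Trpm2* with 100. At that pseudocount 1 member, *Cacna2d1*, was left on the vestibular side, where 1.27% of all genes were. These comparisons share libraries with the HC to ENSC contrasts and are not independent of them.

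Between the ENSC populations, 5 genes (11.4%) were 3-fold or more higher in the cochlea, where 7.8% of all genes were, and 2 (4.55%) were higher in the vestibular organs, where 7.94% were. *Trpa1*, *Cacng4*, *Scn9a*, *Cacnb4* (3.94-fold) and *Trpc5* (at least 3.29-fold) were higher in cochlear ENSCs. *Trpv4* and *Itpr1* were higher in vestibular ENSCs. With the correction for length and GC content, the log2 ratio of cochlear to vestibular ENSCs went from 1.98 to 1.41 for *Cacnb4* and from -2.16 to -1.28 for *Trpv4*, both under 3-fold. With a floor of 50, *Cacng4*, *Scn9a*, *Cacnb4*, *Trpc5* and *Trpv4* went under it. On the deposited values, *Cacnb4* and *Trpc5* were the 2 members past 3-fold between the organs in both cell types, *Trpc5* in the same direction and *Cacnb4* in opposite ones. The share of all genes with this pattern was not counted, so the 2 members are not set against it.

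**Figure D3:**
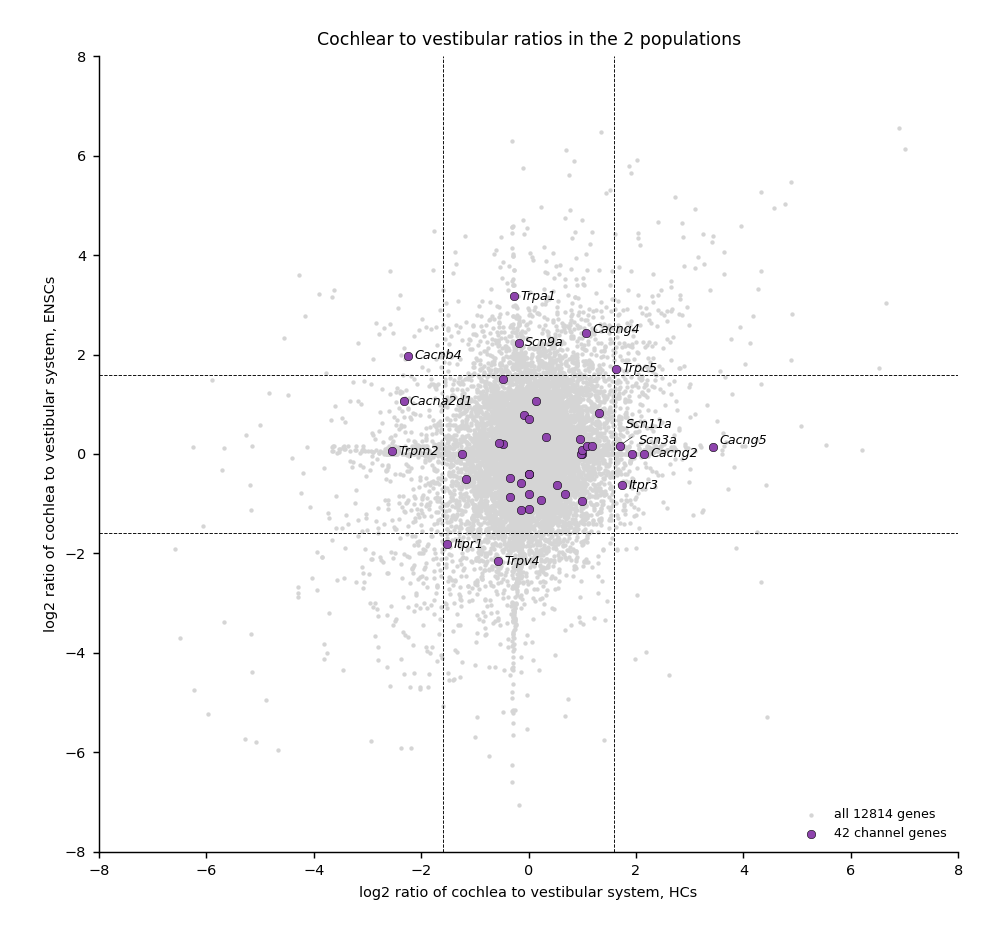
Log2 ratio of the cochlea to the vestibular system in HCs (horizontal) against that in ENSCs (vertical), with grey points for all 12814 genes, purple points for 42 of the 44 channel genes and dashed lines at 3-fold. Among the channel genes drawn, *Cacng5* lies farthest to the cochlear side on the HC axis, *Trpa1* is the highest channel gene on the ENSC axis, and *Cacnb4* lies at the upper left.

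Genes taken as partners of these channels were examined as lists. The median log2 ratio of HCs to ENSCs was 1.04 in the cochlear and 1.14 in the vestibular contrast for partners of calcium channels, 0.61 and -0.25 for those of sodium channels, 1.45 and 3.79 for those of HCN channels, and -0.41 and -0.96 for those of the release channels, against 0.0 and -0.005 for all genes. The counts below stand against 8.39% of all genes higher and 9.2% lower in HCs by 3-fold or more in the cochlea, and 13.8% and 14.3% for the vestibular contrast. Of 17 calcium channel partners, 10 were in the table, and 3 were 3-fold or more higher in HCs in the cochlea and 3 in the vestibular organs, with 1 and 0 lower. *Rims2*, an active zone scaffold, measured 3080 in cochlear HCs, 120 in cochlear ENSCs, 384 in vestibular HCs and 149 in vestibular ENSCs, and was 25.7-fold higher in HCs in the cochlea and 2.58-fold in the vestibular organs. *Rimbp2*, which links RIM proteins to calcium channels, measured 269.5 in cochlear HCs, 22 in cochlear ENSCs, 316 in vestibular HCs and 20 in vestibular ENSCs and was high in both HC libraries. *Cabp2*, a calmodulin-like protein that keeps CaV1.3 channels from inactivating, was above the tied stretch in vestibular HCs only, with 22.5 in cochlear HCs, 21.5 in cochlear ENSCs, 259 in vestibular HCs and 20 in vestibular ENSCs. *Gem*, a small GTPase that inhibits calcium channels, was low in cochlear HCs alone, with 23.3 in cochlear HCs, 265 in cochlear ENSCs, 289 in vestibular HCs and 255 in vestibular ENSCs.

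Of 11 sodium channel partners, 10 were in the table, of which 4 were higher and 3 lower in HCs by at least 3-fold in the cochlea, and 3 higher and 3 lower in the vestibular organs. The intracellular FGF homologous factors, which bind the tail of sodium channels, differed among themselves. *Fgf11* was 3.11-fold higher in HCs in the cochlea and 1.66-fold higher in the vestibular organs, so that it passed 3-fold in the cochlea alone. *Fgf12* was 34.3-fold higher in HCs in the vestibular organs, where it reached 755, and at least 2.89-fold higher in the cochlea, under 3-fold on the deposited values. *Fgf13* and *Fgf14* were lower in HCs of both organs, *Fgf14* with a signal of 23.8 in cochlear HCs, 313 in cochlear ENSCs, 31.5 in vestibular HCs and 511 in vestibular ENSCs. *Nfasc* and *Nrcam*, adhesion molecules of the axon initial segment, were 3-fold or more higher in HCs in both organs. *Cntn1*, an adhesion molecule that binds sodium channel complexes, was lower in cochlear HCs by 48.0-fold, with 181 in cochlear HCs, 8676 in cochlear ENSCs, 2205 in vestibular HCs and 4473 in vestibular ENSCs.

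Of 5 genes listed as HCN partners, 3 were in the table. All 3 were 3-fold or more higher in vestibular HCs than in vestibular ENSCs, and 1 of them, *Tcerg1l*, was so in the cochlea. Whether *Tcerg1l* acts on HCN channels was not examined, and its vestibular log2 ratio of 3.79 is the median of this list. *Pex5l*, the TRIP8b protein that controls the trafficking of HCN channels, measured 61.5 in cochlear HCs, 22.5 in cochlear ENSCs, 813 in vestibular HCs and 55 in vestibular ENSCs. Vestibular HCs had the highest value of *Pex5l*.

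Of 20 partners of the release channels, 11 were in the table. In the cochlea 0 were higher and 3 were lower in HCs by at least 3-fold, and in the vestibular organs 1 was higher and 5 were lower. *Trdn*, the triadin that anchors calsequestrin to ryanodine receptors, measured 22.5 in cochlear HCs, 186 in cochlear ENSCs, 285 in vestibular HCs and 20.8 in vestibular ENSCs. It was high in cochlear ENSCs and vestibular HCs, as *Cacnb4* was. *Jph1*, a junctophilin, was high in cochlear ENSCs only, with 22.5 in cochlear HCs, 169.8 in cochlear ENSCs, 26.5 in vestibular HCs and 21.8 in vestibular ENSCs.

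Of 22 related channels outside the symbol pattern, *Cacna1d* included, 14 were in the table. In the cochlea 2 were 3-fold or more higher and 2 lower in HCs, and in the vestibular organs 3 were higher and 4 lower, with median log2 ratios of -0.30 and -0.84. *Orai2*, a store-operated calcium channel, had a signal of 85.8 in cochlear HCs, 20 in cochlear ENSCs, 72.5 in vestibular HCs and 20 in vestibular ENSCs and was higher in HCs in both organs. *Tpcn1*, the endolysosomal channel TPC1, measured 30 in cochlear HCs, 131 in cochlear ENSCs, 38.8 in vestibular HCs and 463 in vestibular ENSCs and was lower in HCs in both, by 4.37-fold and 11.9-fold.

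**Figure D4:**
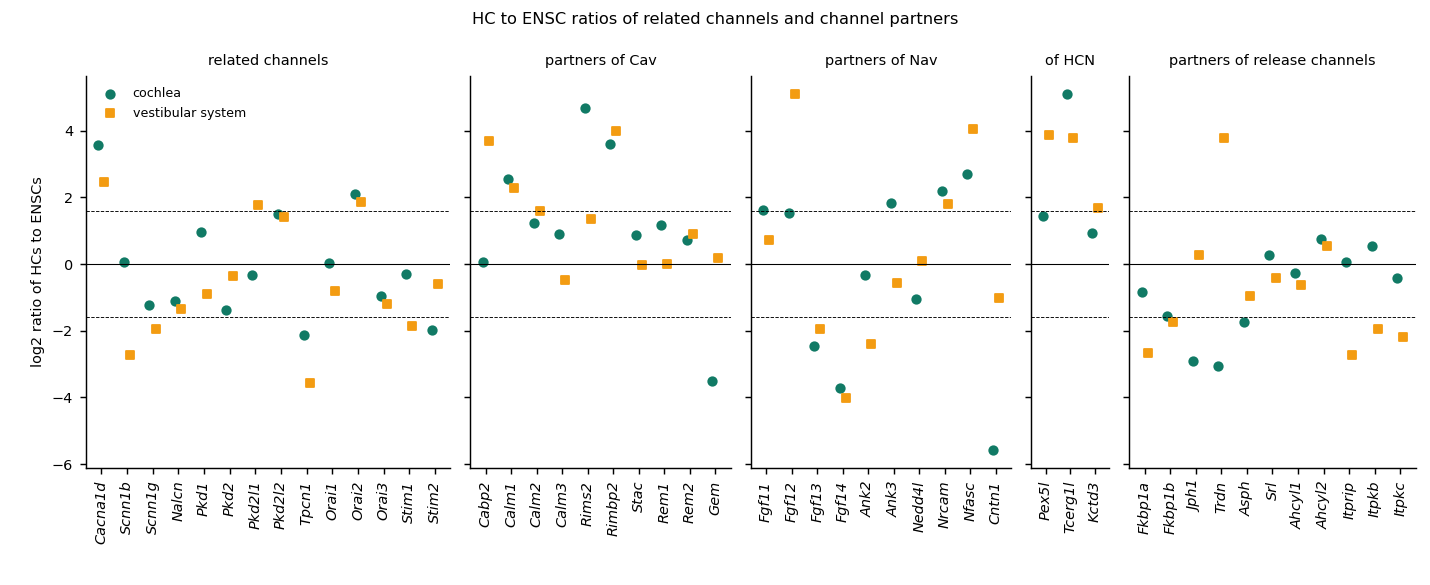
Log2 ratio of HCs to ENSCs for the genes of the 5 lists in the table, with green circles for the cochlea, orange squares for the vestibular system and dashed lines at 3-fold. Among the listed partners, *Rimbp2* and *Tcerg1l* lie high in both organs, *Rims2* lies high in the cochlea, and *Fgf12* is highest in the vestibular system. *Cntn1* is lowest in the cochlea, *Fgf13* and *Fgf14* lie low in both organs, and *Trdn* and *Gem* are far lower in the cochlea than in the vestibular organs.

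Of the 26 genes outside the 18, 20 never reached a signal of 100. Their highest values ran from 30.5 (*Cacnb1*) to 99.5 (*Cacng2*), and 9 of the 20 were past 3-fold in at least 1 contrast. The share among all genes that never reached 100 was not counted. The other 6, *Cacna2d2*, *Cacnb3*, *Itpr2*, *Trpc4ap*, *Trpm7* and *Mcoln3*, reached 100 and stayed under 3-fold in all 4 contrasts. Across all 44 genes, 17 were under 3-fold in all 4 contrasts (38.6%), and so were 57.9% of all genes.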

How the data were processed

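RNA-seq was made from cells sorted from the cochlea and vestibular system of *Atoh1/nGFP* mice, with inner ears of several mice pooled and RNA amplified with NuGEN Ovation. The design text speaks of triplicates, and the table analysed here held 1 column per population. Groups came from the labels, and each non-HC column was matched to the ENSC sample from that organ. What the authors deposited is a signal: reads cut to their first 50 nt were aligned to mm9 (TopHat) and counted over ENSEMBL genes (HTSeq), and the counts were quantile-normalized with a floor of 20. Software versions, ENSEMBL release and strandedness of the counting are not given in the sources used here. All values were multiples of 0.25. Quantile normalization removes depth and any overall shift between cell types, so depth is unknown and no interval or floor for counting error is given.

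From these values log2 ratios were computed with no added pseudocount, and ratios of at least 3 (the study's threshold) were counted over the members and over all 12814 genes. The tied lowest stretch of a library was taken to end at the last value, going up from the floor, before the typical maximum that genes of that value had elsewhere (a median over genes) dropped by more than 2-fold, where it had risen at least 5-fold, and otherwise at the floor. Positions, exonic length and GC content came from GENCODE for NCBIM37 (mm9), which held 12799 of the gene identifiers and all 44 members. Values in all 4 libraries were printed for members that reached a signal of 100 in some library and showed a ratio of at least 3 in 1 or more contrasts (18 genes, of which 17 are given). Some genes are not reported here, and counts, medians and sums include them. Other genes given with all values were named after their values were seen. The members, the partner and marker lists and the threshold were chosen with earlier results of these data known.

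The alternatives were a floor of 50, pseudocounts of 20 and 100, thresholds of 2 and 5, a restriction to genes that reached 100 in some library, centring on the median ratio, tied stretches set to their top, and a correction of ratios for trends on GC content and exonic length (lowess with a span of 0.3 and 2 robust iterations). The ratio and correction steps were tested on simulated data. Python 3.11.15, pandas 2.3.3, numpy 2.4.6 and statsmodels 0.14.6 were used.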

Additional observations from a re-analysis of the deposited data

Results flagged for a closer look

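*Cacnb4*, a calcium channel beta subunit gene, was the only one of the 44 genes at least 2-fold apart between HCs and ENSCs in opposite directions in the 2 organs. Its log2 ratio of HCs to ENSCs was -2.27 in cochlear and 1.95 in vestibular tissue, a difference of 4.22. The difference was not tested, since each value rests on 1 column. Over the alternatives tried it ranged from 1.40 (pseudocount of 100) to 4.30 (centred ratios), and the ratios were no longer both 2-fold apart with a floor of 50 (log2 ratios -1.02 and 0.99) or a pseudocount of 100 (-0.74 and 0.66). Both were under 3-fold with that floor and with either pseudocount. With the correction for exonic length and GC content the log2 ratios were -2.43 and 1.23.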

How the results depend on the processing

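No paired analysis was possible because each population had 1 column and the labels give no replicate numbers, and for the same reason no replicate could be left out. A fit that takes the 2 organs as replicates of a cell type was not made. No 3-fold difference of the 18 genes that reached a signal of 100 changed sign in any alternative. Counts of members at least 3-fold apart follow, each with its percent of members and then the percent of all genes. Between HCs and ENSCs of the cochlea the count was 18 (40.9%, 17.6%), and 9 (20.5%, 12.2%) with a floor of 50, 11 (25%, 12.4%) with a pseudocount of 20, 7 (15.9%, 6.24%) with a pseudocount of 100 and 10 (22.7%, 8.55%) at 5-fold. In the vestibular contrast it was 14 (31.8%, 28.1%), and 9 (20.5%, 20.3%) and 4 (9.09%, 10.9%) with pseudocounts of 20 and 100 and 7 (15.9%, 14.2%) at 5-fold. Between the HC populations it was 10 (22.7%, 9.3%), and 5 (11.4%, 5.36%) with a floor of 50, 5 (11.4%, 5.38%) and 2 (4.55%, 2.17%) with pseudocounts of 20 and 100, 17 (38.6%, 21%) at 2-fold and 4 (9.09%, 3.43%) at 5-fold. Between the ENSC populations it was 7 (15.9%, 15.7%), and 2 (4.55%, 10.8%) with a floor of 50, 1 (2.27%, 5.14%) with a pseudocount of 100, 12 (27.3%, 34.5%) at 2-fold and 2 (4.55%, 6.27%) at 5-fold. A floor or pseudocount shrinks ratios of low genes by construction. The other alternatives kept each of these totals within 1.5-fold. Some counts in 1 direction moved further. Among these, the 5 lower in vestibular HCs became 2 with a floor of 50 or the correction for length and GC content and 3 with tied stretches at their top, the 6 higher in cochlear than vestibular HCs became 3 among genes that reached 100, 2 with a floor of 50 or a pseudocount of 20 and 1 with a pseudocount of 100, and the 2 lower in cochlear than vestibular ENSCs became 1 with the correction. Vestibular ratios fell with GC content across genes (Spearman's rho -0.395), and so did ratios of cochlear to vestibular ENSCs (rho -0.453), a description over genes that share libraries. With the correction for length and GC content, *Cacnb4*, *Trpm4*, *Trpm5* and *Trpv4* went under 3-fold and *Hcn4* above it in the vestibular contrast, *Cacng7* went under it in the cochlea, and between ENSCs *Cacnb4* and *Trpv4* went under and *Cacng7* above. With tied stretches set to their top, *Scn3a* and *Trpc5* between HCs and *Trpm4* and *Trpm5* in the vestibular contrast went under. Unknown depth and the floor limit every value near 20.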
